A study of Drosophila melanogaster with 88 samples.

Results

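The data described here are 8 of the 88 RNA libraries of a fly study: whole heads of male Drosophila melanogaster that carry the P58S form of VAP together with the Repo driver, 4 libraries at 5 days of age and 4 at 15 days. They were chosen by their labels, which give sex, tissue, genotype (VAPP58SRepo) and age. P58S is a missense change in Vap33, the fly member of the VAP family, and it stands for a VAPB change that causes an inherited form of amyotrophic lateral sclerosis in people. Repo is, per the design text, a GAL4 driver, and it is active in glia. No kay construct is named for these flies, so the driver acts here on none of the constructs of the other Repo arms. How the P58S allele is carried, and whether the flies of a group were siblings or pooled, is not given in the sources used here. The series also holds 3 arms in which the same driver lowers kay (KayKD), raises it (KayWT) or drives a construct labelled KaySCR. For comparison, heads of plain P58S males (VAPP58S) and of males with wild-type VAP (VAPWT), both without the driver, were taken at the same ages, again with 4 libraries a group. The comparison asks how transcript levels change between day 5 and day 15 in P58S flies that carry the glial driver alone.

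VAP proteins sit in the membrane of the endoplasmic reticulum and hold it close to other organelles, so that lipids can pass between them. The driver takes its control region from repo, a transcription factor that is made in almost all fly glia. kay encodes the fly Fos protein, which with Jra, the fly Jun, forms the AP-1 transcription factor at the end of the JNK stress pathway. In young adult flies the cuticle, the flight and head muscles and the energy supply of these muscles are still being completed for some days after hatching. Whole heads hold cuticle and head muscle beside brain, retina, glia and fat body.

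Each library holds counts of 3′ ends of transcripts, so a gene's value does not grow with its length. Reads on genes came to 7060487, 4142083, 1609827 and 2223361 in day 5 replicates 1 to 4, and to 5541676, 6778650, 4211587 and 8358996 in day 15 replicates 1 to 4. Levels are given as CPM, reads per 1000000 reads on genes with TMM scaling, and a count of 0 allows up to 0.359 to 1.86 CPM, for counting error only. Day 5 replicate 3 stood apart: it was the shallowest, had reads on 8838 genes against 9578 to 10889 in the other 7, and had the largest share of reads from the mitochondrial genome, 17.7% against 12.7% to 14.8%. It lay at 81.1 on the first principal component (34.1% of the variance), the others between -21.5 and 11.2. Log2 levels of 2 replicates of an age correlated over genes at 0.901 to 0.970, lowest for a pair with that library. Whether the 4 libraries of an age come from different flies is not stated, and the p-values therefore describe library-to-library spread, which could be technical.

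Vap33, repo and w, the genes tied to the genotype labels, were not called between day 5 and day 15. A test of age does not check these labels. Vap33 was read at 721, 777, 760 and 676 CPM at day 5 and at 749, 686, 659 and 789 CPM at day 15, and the ages overlapped (log2 fold change -0.02 ± 0.09 SE, edgeR quasi-likelihood test, adjusted p = 0.927). A count over Vap33 does not separate the P58S form from the normal one. repo, the gene whose control region the driver uses, stood at 22.9, 31.2, 41.0 and 27.2 CPM and then at 26.2, 28.2, 19.5 and 19.8 CPM, overlapping (log2 fold change -0.36 ± 0.21, edgeR adjusted p = 0.375). w, an eye pigment transporter gene that many fly constructs carry as a marker, was read at a mean of 14.0 ± 8.6 CPM (SD, n = 4) at day 5 and 10.8 ± 1.8 CPM at day 15 (log2 fold change -0.39 ± 0.27, edgeR adjusted p = 0.484). In plain P58S heads w averaged 1.91 CPM at day 5 and 3.11 CPM at day 15, and in wild-type VAP heads 2.28 and 3.75 CPM. These use the scaling of all 56 male libraries, and the Repo levels that of the 32 Repo libraries.

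At day 15 the heads held fewer transcripts of muscle, of the respiratory chain and of the cuticle and lens than at day 5, and more of neuronal activity genes, of fat handling and of several stress genes. Of 9796 genes tested, 595 changed at an adjusted p under 0.05 (6.07%): 269 were higher at day 15 (2.75%) and 326 lower (3.33%). At an unadjusted p under 0.05 there were 1850. In 458 of the 595 the 4 libraries of one age all lay above the 4 of the other, against 987 of all tested genes (10.1%; 5.25% with day 15 above and 4.83% with day 15 below). The median size of change among the called genes was 0.75 on the log2 scale, and 175 changed more than 2-fold, 92 upward and 83 downward. The median over all tested genes was 0.01. The number called was 380 without day 5 replicate 2, 367 without day 5 replicate 3, 361 without day 15 replicate 2 and 391 without day 15 replicate 3.

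**Figure D1:**
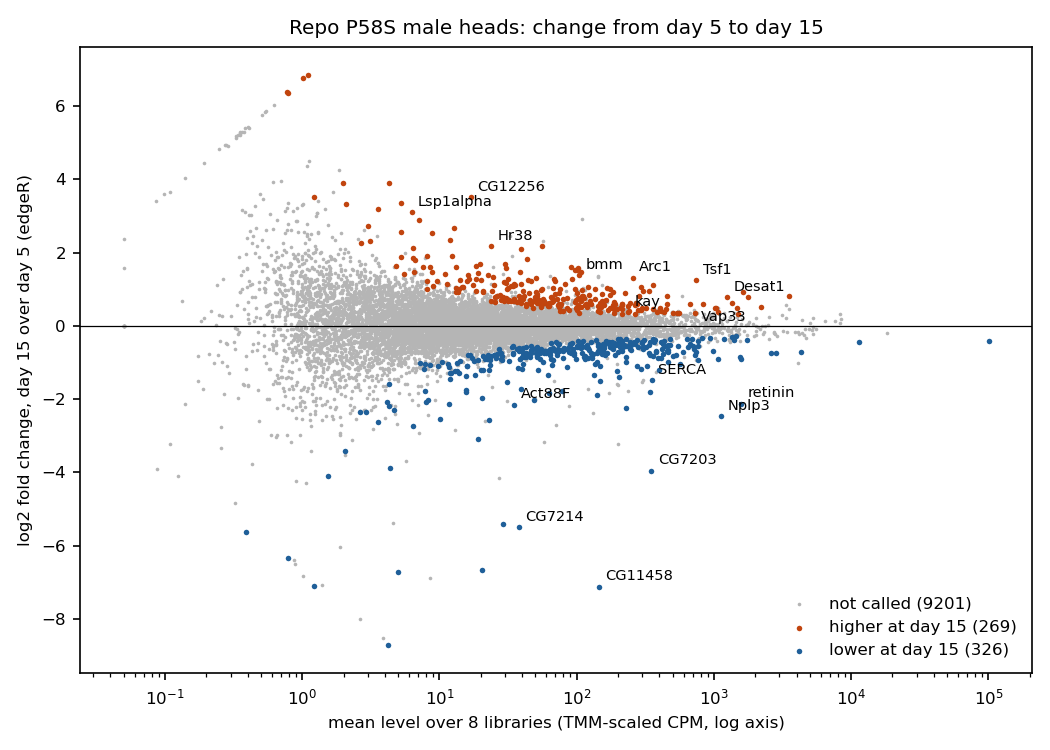
Log2 fold change from day 5 to day 15 (vertical) against mean level in TMM-scaled CPM (horizontal, log axis) for the 9796 tested genes of Repo P58S male heads. Orange points are the 269 genes called higher at day 15 and blue points the 326 called lower, by edgeR. CG11458, CG7214, CG7203 and Nplp3 are the named falls farthest below 0 at their levels, and Vap33 lies at 0.

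Nplp3 and CG7203 had the lowest p-values of all tested genes, and both fell. Nplp3, a neuropeptide-like precursor (3L:16318024-16318690, dm6), was read at 1870, 1983, 1850 and 1972 CPM at day 5 and at 382, 314, 327 and 366 CPM at day 15. Every day 15 library lay far below every day 5 library, and the fall was 5.53-fold (log2 fold change -2.47 ± 0.12 SE, edgeR adjusted p = 1.448e-16). CG7203 (2L:7752170-7753186), which has no named role here, stood at 629, 744, 542 and 721 CPM and dropped to 48.4, 45.7, 39.6 and 36.5 CPM. Its groups did not overlap, and the fall was 15.5-fold (log2 fold change -3.95 ± 0.21, edgeR adjusted p = 1.708e-15). CG11458 (3L:20905795-20906331) nearly vanished, from 466, 206, 246 and 239 CPM to 0, 2.25, 4.75 and 1.84 CPM (log2 fold change -7.12 ± 0.51, edgeR adjusted p = 4.267e-12). CG7214 did the same at a lower level, from 53.2 to 89.9 CPM at day 5 to between 1.54 and 1.86 CPM at day 15.

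Proteins of the lens and cuticle were part of this fall. retinin, which encodes a protein of the corneal lens (3L:16331933-16332789), was among the strongest transcripts at day 5, with 3354, 2196, 2168 and 2512 CPM. At day 15 it was read at 564, 637, 569 and 576 CPM, with no overlap (log2 fold change -2.13 ± 0.19, edgeR adjusted p = 1.296e-09). Of 32 tested cuticle protein genes, out of 126 on the list, 6 were lower, 0 were higher and 26 did not pass, with a median of -0.49, beside 3.33% lower over all genes. Cpr49Ae, a chitin-binding cuticle protein gene, went from 310, 388, 447 and 366 CPM to 81.5, 72.4, 72.2 and 89.7 CPM (log2 fold change -2.26 ± 0.15, edgeR adjusted p = 3.128e-13). Crys, a lens crystallin gene on the same list, fell by 0.86 ± 0.20 on the log2 scale (edgeR adjusted p = 0.00503), and Cpr65Au by 0.68 ± 0.14 (edgeR adjusted p = 0.00248).

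**Figure D2:**
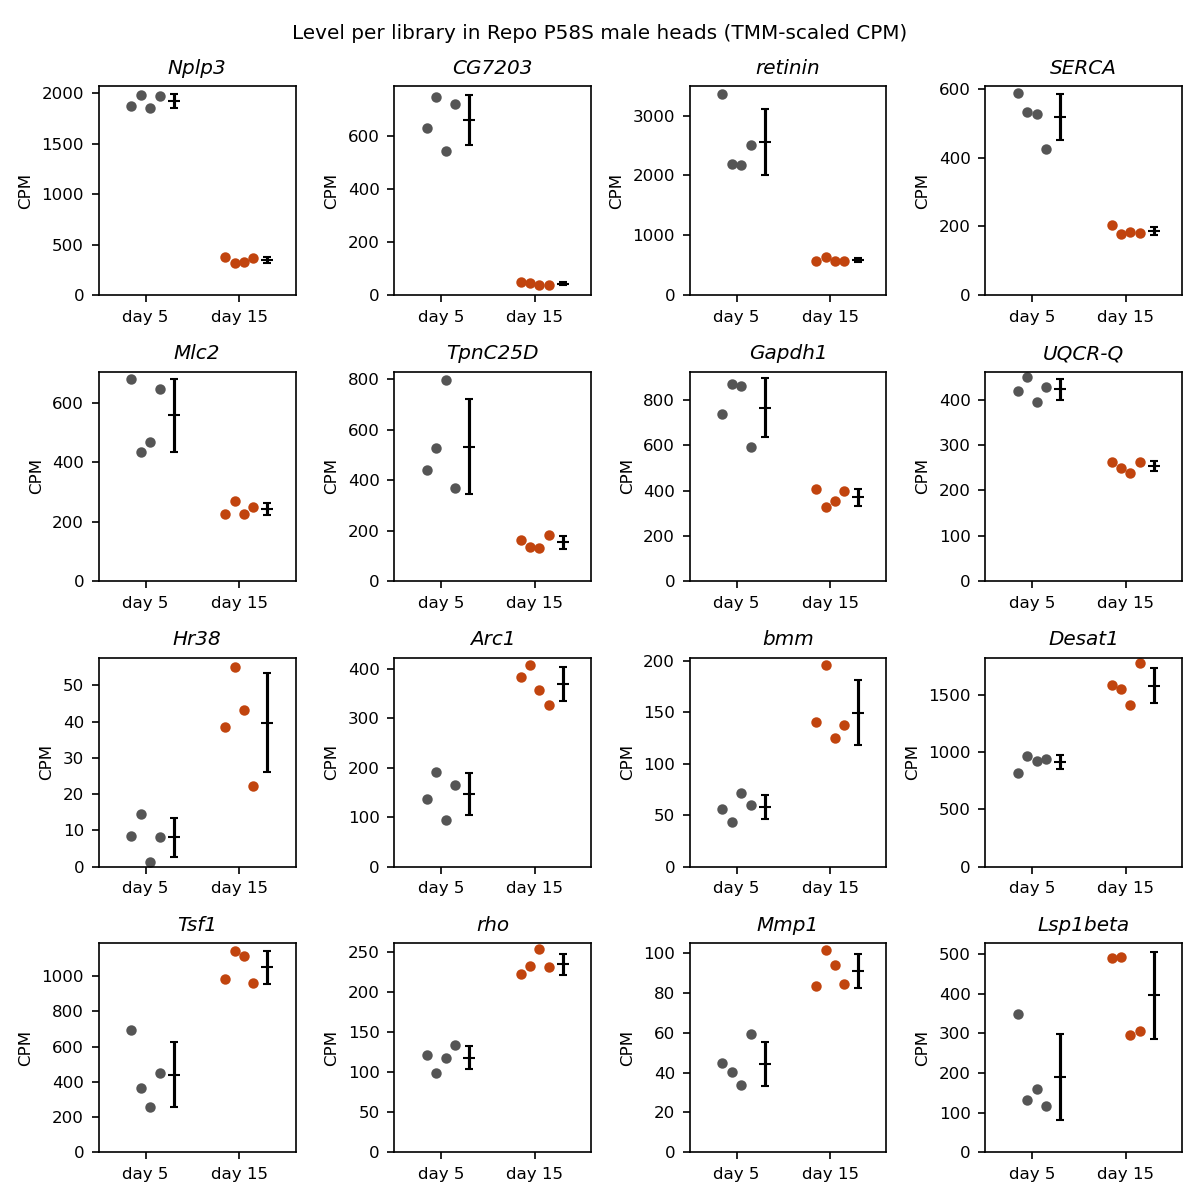
Level of 16 genes in each Repo P58S library (TMM-scaled CPM, vertical axes from 0), 4 libraries at day 5 in grey and 4 at day 15 in orange, with the mean ± SD beside each group. Nplp3, CG7203, retinin and SERCA show tight, separate groups, while in Lsp1beta the highest day 5 library lies above 2 of the day 15 libraries.

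Genes of contractile muscle fell almost as a block. Of the 21 muscle markers, 17 were lower at day 15, 0 were higher and 4 did not pass, with a median log2 fold change of -1.05. Over all tested genes 3.33% were lower. In 17 of the 21 the ages did not overlap, against 10.1% of all genes. Head muscle moves the proboscis and the antennae. In whole heads, fewer cells of a type and less RNA per cell cannot be told apart. Mlc2, a myosin light chain, was read at 680, 435, 467 and 648 CPM at day 5 and at 227, 270, 227 and 249 CPM at day 15 (log2 fold change -1.20 ± 0.11, edgeR adjusted p = 2.406e-09). Even the lowest day 5 library was above the highest day 15 library. Act79B, an actin of tubular muscle, fell from 108 to 133 CPM to between 33.0 and 37.2 CPM (log2 fold change -1.78 ± 0.17, edgeR adjusted p = 4.96e-09). Act88F, the actin of the indirect flight muscle, was lower in level and fell from 47.1 to 71.1 CPM to between 11.3 and 15.2 CPM.

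The other muscle genes followed the same course at other sizes. Act57B, an actin used in many muscles, moved less, from 477, 484, 536 and 509 CPM to 267, 291, 271 and 273 CPM (log2 fold change -0.86 ± 0.11, edgeR adjusted p = 1.283e-06), with very little spread. Mlp60A, a muscle LIM protein of the Z-disc, fell by 1.23 ± 0.16 and Mlc1, the alkali myosin light chain, by 1.39 ± 0.18 on the log2 scale. The 4 markers that did not pass also had negative values: TpnC73F at -1.05 (edgeR adjusted p = 0.0583), the titin-like sls at -0.29 (0.0976), TpnC4 at -2.16 (0.132) and fln at -2.32 (0.190), named here after their values were seen. Outside the list, SERCA, the calcium pump of the sarcoplasmic reticulum and of other cells, fell from 587, 533, 527 and 425 CPM to 204, 177, 184 and 181 CPM (log2 fold change -1.47 ± 0.11, edgeR adjusted p = 4.267e-12). TpnC25D, a troponin C gene, fell from 440, 527, 797 and 367 CPM to 162, 136, 131 and 182 CPM (log2 fold change -1.80 ± 0.17, edgeR adjusted p = 2.175e-09). The summed level of the 21 markers was 7162 to 8123 CPM at day 5 and 4503 to 4814 CPM at day 15. The number of muscle markers called stayed between 16 and 18 when each of the 8 libraries was left out.

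The nuclear genes of the respiratory chain fell together, while those of the mitochondrial genome did not pass in the same fit. In complex I, which passes electrons from NADH, 23 of 34 tested genes were lower and 0 higher, with a median of -0.52. In complexes II to V, 28 of 37 tested genes were lower and 0 higher, with a median of -0.58. Both counts stand beside 3.33% lower and 2.75% higher over all tested genes. UQCR-Q of complex III was read at 420, 452, 395 and 429 CPM at day 5 and at 263, 250, 240 and 263 CPM at day 15 (log2 fold change -0.74 ± 0.12, edgeR adjusted p = 5.116e-05). Its 2 groups were tight and far apart. Among subunits of the ATP synthase, ATPsynD fell by 0.87 ± 0.13, ATPsyngamma by 0.79 ± 0.12 and ATPsynG by 0.76 ± 0.11 on the log2 scale, at edgeR adjusted p = 1.551e-05, 3.523e-05 and 2.082e-05. COX7AL2, a cytochrome oxidase subunit gene, moved most, from 67.9 to 127 CPM to between 25.8 and 31.6 CPM (log2 fold change -1.82 ± 0.18, edgeR adjusted p = 1.164e-08). In complex I, ND-19 fell by 0.98 ± 0.17 and ND-B15 by 0.78 ± 0.12 (edgeR adjusted p = 0.00017 and 5.31e-05).

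Of the 13 mitochondrially encoded genes, 0 were called by edgeR in either direction, and their median was 0.06. That count was 2 without day 5 replicate 1, 1 without day 5 replicate 4 or day 15 replicate 4, and 1 with DESeq2, with either other filter on low counts, with the 8 libraries fitted alone and with all 56. The lowest p-values were upward, for mt:ATPase8 with 29.9, 16.6, 25.6 and 30.3 CPM at day 5 and 47.4, 58.7, 36.2 and 37.3 CPM at day 15 (log2 fold change 0.82 ± 0.26, edgeR adjusted p = 0.0516, and 0.018 to 0.364 over the alternatives) and for mt:ND3 (log2 fold change 0.66 ± 0.25, edgeR adjusted p = 0.119). Summed levels were 4610 to 5578 CPM for complex I at day 5 and 3545 to 3843 CPM at day 15, and 12020 to 15430 CPM for complexes II to V against 8397 to 8930 CPM. Of the 72 mitochondrial ribosomal protein genes, 1 was lower and 0 higher, with a median of -0.26, beside 3.33% lower over all genes. The count for complex I fell to 15 without day 5 replicate 2 and to 14 without day 15 replicate 2, and the count for complexes II to V stayed at 27 to 29 over all 8 omissions. Muscle markers moved with these genes, and their part in the result was not tested.

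**Figure D3:**
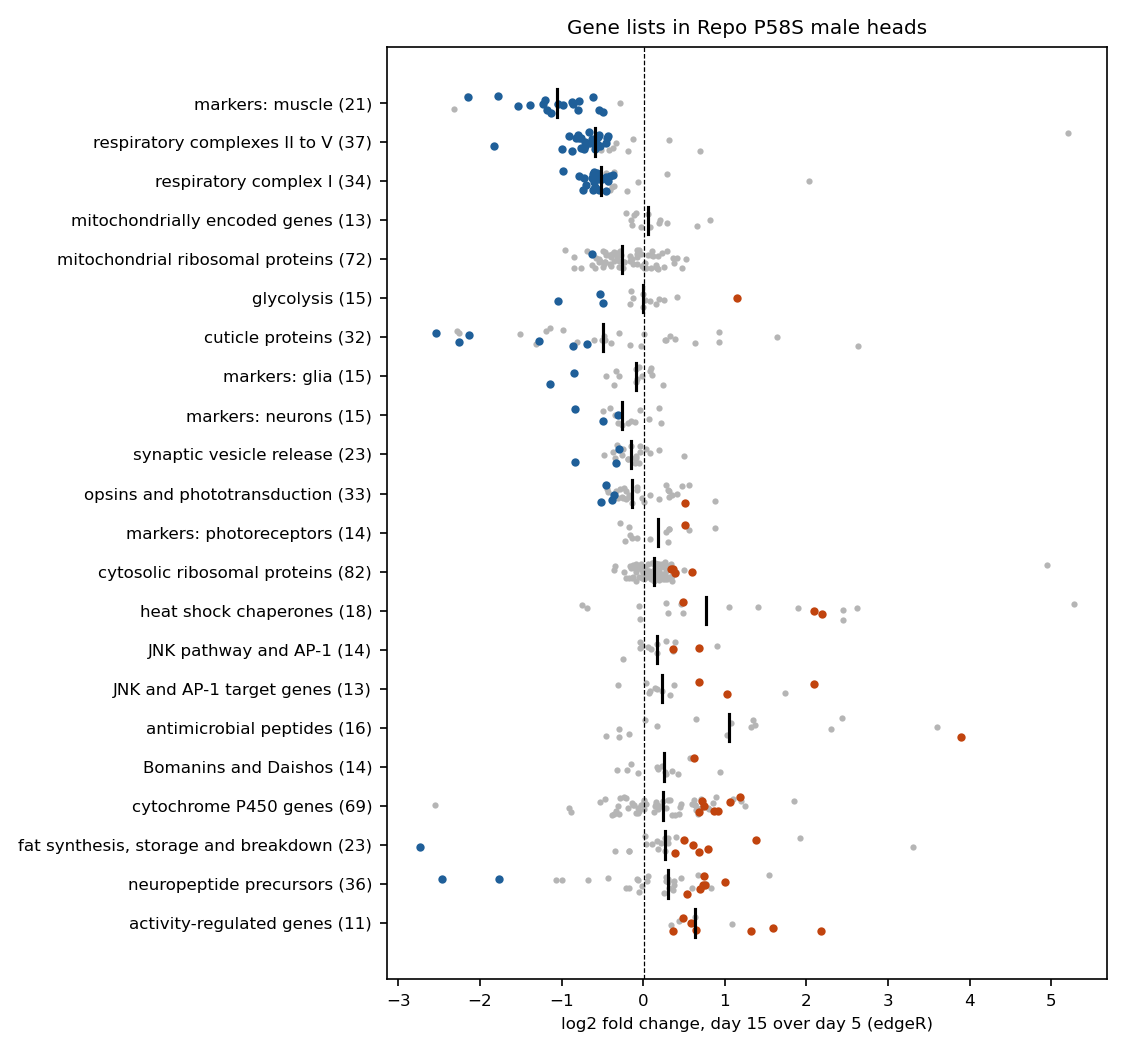
Log2 fold change from day 5 to day 15 of each tested member of 22 gene lists (number tested in brackets) in Repo P58S heads. Blue and orange points are members called lower and higher by edgeR, grey points are not called, black bars are list medians and the dashed line is the median of all tested genes; muscle, complex I and complexes II to V lie left of it at -1.05, -0.52 and -0.58.

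A few glycolysis transcripts changed. Of 15 glycolysis genes tested, 3 were lower and 1 higher, with a median of 0.003, beside 3.33% lower and 2.75% higher over all genes. Gapdh1, glyceraldehyde 3-phosphate dehydrogenase, fell from 737, 872, 863 and 595 CPM to 406, 327, 353 and 397 CPM (log2 fold change -1.05 ± 0.11, edgeR adjusted p = 2.578e-08), with no overlap. Pglym78, a phosphoglycerate mutase, fell by 0.53 ± 0.10 on the log2 scale (edgeR adjusted p = 0.000769). Ldh, lactate dehydrogenase, went the other way, from 27.6, 18.0, 12.8 and 27.2 CPM to 55.6, 36.3, 51.8 and 50.9 CPM (log2 fold change 1.15 ± 0.29, edgeR adjusted p = 0.0112). Its adjusted p was 0.0512 without day 5 replicate 2 and 0.0537 without day 5 replicate 3, and without the latter 2 glycolysis genes were called. Glyp, glycogen phosphorylase, was the 1 called gene among 9 of trehalose and glycogen metabolism and fell by 0.47 ± 0.11 (edgeR adjusted p = 0.00593).

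A few markers of glia and of blood cells fell, beside 3.33% called lower over all tested genes. Of 15 glial markers, 2 were lower and 0 higher, with a median of -0.09: nrv2, a Na/K pump subunit of glia, fell from 258 to 332 CPM to between 151 and 186 CPM (log2 fold change -0.85 ± 0.12, edgeR adjusted p = 1.692e-05). Gat, the GABA transporter of astrocyte-like glia, fell from 62.3, 56.2, 37.7 and 48.9 CPM to 27.1, 21.8, 12.0 and 32.0 CPM (log2 fold change -1.15 ± 0.22, edgeR adjusted p = 0.000744). The summed level of glial markers overlapped between ages by 1 library, at 5406 to 7306 CPM and then 4838 to 5421 CPM. The 10 blood cell markers had a median of 0.24, with 7 positive and 3 negative values, and 0 were called higher. The 2 that fell were the collagen IV genes Col4a1 and vkg, which fat body and other cells also make. Col4a1 went from 280, 220, 195 and 178 CPM to 58.0, 75.2, 99.1 and 75.6 CPM (log2 fold change -1.51 ± 0.23, edgeR adjusted p = 3.517e-05), and vkg fell by 0.85 ± 0.14 (edgeR adjusted p = 9.32e-05).

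**Figure D4:**
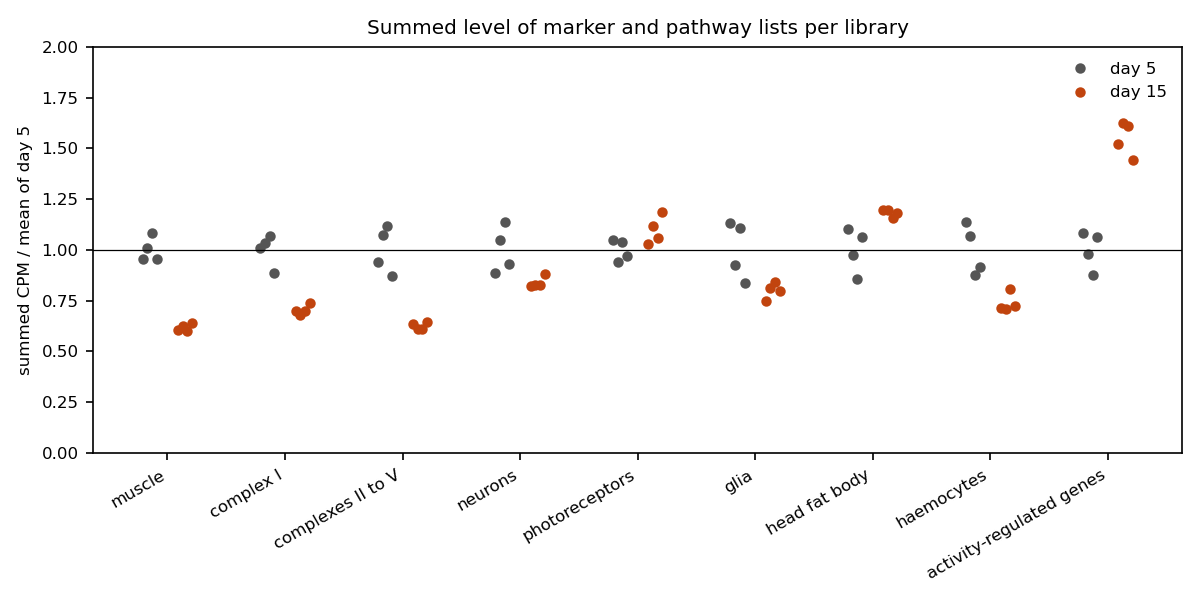
Summed CPM of 9 lists in each library of Repo P58S heads, divided by the mean of the 4 day 5 libraries (vertical axis from 0). The 4 day 15 libraries (orange) lie clear of the day 5 libraries (grey) for muscle, complex I, complexes II to V and activity-regulated genes. By less, they also lie above them for head fat body and below them for blood cells (haemocytes). For neurons they lie just below, and for photoreceptors and glia the ages overlap.

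Genes switched on by neuronal firing were higher at day 15. Of the 11 activity-regulated genes, 7 were higher and 0 lower, with a median of 0.63, beside 2.75% higher over all genes. Hr38, the fly member of the NR4A nuclear receptors and a classical marker of recent firing (2L:20683462-20714588), was read at 8.41, 14.4, 1.35 and 8.22 CPM at day 5 and at 38.6, 55.0, 43.2 and 22.1 CPM at day 15. All day 15 values were higher, and the rise was 4.51-fold (log2 fold change 2.17 ± 0.36, edgeR adjusted p = 0.000105). sr, the fly counterpart of the Egr factors, rose from 9.53, 18.7, 4.04 and 27.7 CPM to 55.8, 48.3, 46.0 and 32.6 CPM (log2 fold change 1.59 ± 0.37, edgeR adjusted p = 0.00691). Arc1, which forms capsids that carry RNA between cells, rose from 137, 191, 93.5 and 166 CPM to 383, 407, 356 and 327 CPM (log2 fold change 1.32 ± 0.17, edgeR adjusted p = 2.322e-06).

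The other called members of that list were meng, a kinase gene (log2 fold change 0.59 ± 0.15, edgeR adjusted p = 0.0125), CG13868 (0.64 ± 0.17, 0.018), CG46385 (0.49 ± 0.15, 0.0445) and kay. kay was read at 212, 209, 194 and 216 CPM at day 5 and at 254, 282, 269 and 269 CPM at day 15. These groups did not overlap, but the change was small, at 0.37 ± 0.11 on the log2 scale, and its edgeR adjusted p of 0.0491 lay just inside the threshold. It passed the threshold without each of the 8 libraries in turn in 0 cases, with adjusted p-values from 0.0549 to 0.146. Over the list, 4 genes were called without day 5 replicate 2 or without day 15 replicate 1, and 3 without day 5 replicate 3 or without day 15 replicate 2. Arc1, Hr38 and sr were called in all 8 omissions. The call of meng was lost without day 5 replicate 3 or day 15 replicate 1 or 2 (adjusted p = 0.0581, 0.0561 and 0.0574), and that of CG13868 without day 5 replicate 2 or 3 or day 15 replicate 2 (0.0719, 0.0887 and 0.0824). CG46385 was called in 1 of the 8 omissions, with adjusted p of 0.0541 to 0.143 in the others. The time of day at which heads were taken is not given in the sources used here, and of 14 clock genes 0 were called by edgeR.

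Some genes of fat storage and release were higher. Of 23 genes of fat synthesis, storage and breakdown, 6 were higher, 1 was lower and 16 did not pass, with a median of 0.27, beside 2.75% higher over all genes. bmm, the fly triglyceride lipase (3L:14776496-14786412), rose from 56.2, 43.5, 72.0 and 60.1 CPM to 141, 196, 125 and 138 CPM, a 2.61-fold rise with no overlap (log2 fold change 1.39 ± 0.17, edgeR adjusted p = 8.126e-07). Desat1, the main fatty acid desaturase, rose from 821, 964, 928 and 945 CPM to 1584, 1552, 1412 and 1780 CPM (log2 fold change 0.79 ± 0.10, edgeR adjusted p = 1.953e-06). ATPCL, which makes acetyl-CoA for fat synthesis, rose by 0.68 ± 0.16 on the log2 scale (edgeR adjusted p = 0.00661). Dgat2, an enzyme of triglyceride synthesis, was the 1 gene that fell, from 5.19, 5.52, 24.2 and 9.51 CPM to 2.03, 0.42, 3.62 and 0.57 CPM (log2 fold change -2.74 ± 0.82, edgeR adjusted p = 0.0386). Its call was lost without day 5 replicate 3 and day 15 replicates 1, 2 and 4, with adjusted p = 0.210, 0.0734, 0.129 and 0.118. Over the list, 3 genes were called without day 5 replicate 3 and 4 without day 15 replicate 2 or 4. The summed level of head fat body markers was 6556 to 8440 CPM at day 5 and 8849 to 9156 CPM at day 15. These markers include Desat1, so the sum is not separate from the rise of Desat1. The part of fat body amount in these rises was not tested.

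Rises were also seen in little-studied genes and in genes of secreted or signalling proteins, of which some are given here. CG12256 (3R:12225282-12226339) went from 4.07, 1.68, 4.04 and 0.86 CPM to 23.8, 37.7, 36.9 and 27.4 CPM, an 11.4-fold rise (log2 fold change 3.51 ± 0.42, edgeR adjusted p = 5.993e-07). CG1979, CheA87a, CG16898 and CG8112 rose by 2.90 ± 0.57, 2.67 ± 0.47, 2.34 ± 0.42 and 1.83 ± 0.23 on the log2 scale. CG9689 rose from 60.6, 57.9, 63.2 and 47.1 CPM to 163, 158, 153 and 154 CPM (log2 fold change 1.46 ± 0.15, edgeR adjusted p = 1.655e-08), with a very narrow day 15 group. rho, the protease that releases EGF receptor ligands, rose from 121, 99.2, 118 and 134 CPM to 222, 232, 253 and 231 CPM (log2 fold change 0.99 ± 0.12, edgeR adjusted p = 6.657e-07). orion, a chemokine-like signal by which neurons call glia to engulf debris, rose from 63.6 to 83.8 CPM to between 132 and 163 CPM (log2 fold change 0.99 ± 0.14, edgeR adjusted p = 7.455e-06). Tsf1, the iron carrier transferrin, rose from 691, 364, 259 and 451 CPM to 981, 1141, 1114 and 958 CPM (log2 fold change 1.24 ± 0.19, edgeR adjusted p = 3.523e-05). Miox, an inositol oxygenase, rose by 1.13 ± 0.15 on the log2 scale (edgeR adjusted p = 5.444e-06).

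Stress genes around AP-1 rose in a few members, and the list counts below stand beside 2.75% higher over all genes. Of 14 genes of the JNK pathway and AP-1, puc and kay were higher and 0 lower, with a median of 0.17. The call of kay was lost in 14 of 17 alternatives, with edgeR or DESeq2 adjusted p from 0.0213 to 0.910 over the 17. puc, the phosphatase that JNK switches on to limit itself, was read at 92.5, 66.5, 80.7 and 89.5 CPM and then at 120, 146, 156 and 109 CPM (log2 fold change 0.69 ± 0.16, edgeR adjusted p = 0.00736). Jra, the partner of kay, was low and overlapped, at 15.0, 9.60, 19.5 and 5.62 CPM and then 24.9, 15.7, 32.1 and 19.4 CPM (log2 fold change 0.90 ± 0.34, edgeR adjusted p = 0.115). Among 13 AP-1 target genes, Mmp1, a matrix protease, rose from 44.6, 40.1, 33.6 and 59.2 CPM to 83.4, 101, 93.7 and 84.5 CPM (log2 fold change 1.03 ± 0.20, edgeR adjusted p = 0.000948). Hsp68 and puc were the other two, and 0 were lower. Xrp1, a damage-response transcription factor, rose from 338 to 434 CPM to between 467 and 554 CPM (log2 fold change 0.47 ± 0.10, edgeR adjusted p = 0.00198).

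The heat shock chaperones rested partly on 1 library. Of 18 tested, 3 were higher and 0 lower, with a median of 0.77, beside 2.75% higher over all genes. Hsp26, a small chaperone, was read at 16.3, 37.7, 16.2 and 8.65 CPM at day 5 and at 36.5, 25.1, 45.0 and 262 CPM at day 15, where replicate 4 stood far above the rest (log2 fold change 2.19 ± 0.50, edgeR adjusted p = 0.00533). Without that library its value was 0.81 and its adjusted p 0.232. Hsp68 was at 27.1, 33.3, 51.6 and 148 CPM at day 15 and at 14.9, 25.9, 0 and 16.0 CPM at day 5, and without day 15 replicate 4 its adjusted p went from 0.00798 to 0.113. stv, the fly BAG3 co-chaperone, rose by 0.49 ± 0.13 (edgeR adjusted p = 0.0153), with adjusted p = 0.0625 without day 5 replicate 2 and 0.0675 without day 15 replicate 3. Without day 15 replicate 4 a total of 1 chaperone gene was called, and without day 5 replicate 1 there were 5.

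Immune effectors changed little beyond their spread, and their counts stand beside 2.75% higher over all genes. Of 16 antimicrobial peptide genes, CecC alone was called higher, from 0, 0.96, 0 and 1.30 CPM to 13.2, 8.00, 7.92 and 3.10 CPM (log2 fold change 3.90 ± 1.19, edgeR adjusted p = 0.0431), and reads of cecropin copies can be split between them. Its call was lost, at adjusted p = 0.0751 to 0.113, without day 5 replicate 1, 2 or 3 or day 15 replicate 1, 2 or 3. The median of the 16 genes was 1.05, yet their summed level ran from 1570 to 2830 CPM at day 5 and from 1584 to 3665 CPM at day 15. Of 14 Bomanin and Daisho genes BomS6 rose, from 844 to 1331 CPM to between 1448 and 1839 CPM (log2 fold change 0.62 ± 0.17, edgeR adjusted p = 0.0192), and this call was lost without day 5 replicate 3 or 4 or day 15 replicate 3, at adjusted p = 0.0701, 0.0737 and 0.0781. Rel, the NF-kB factor of the Imd pathway, was the 1 called gene of 20 there (log2 fold change 0.74 ± 0.20, edgeR adjusted p = 0.0239). It was lost without day 5 replicate 4 or day 15 replicate 1 or 2, at adjusted p = 0.0923, 0.0751 and 0.0630. Among 19 Toll pathway genes and 7 of JAK-STAT signalling, edgeR called 0. The Turandot stress gene TotA was read at 197, 57.1, 43.7 and 92.1 CPM and then at 104, 126, 126 and 110 CPM (log2 fold change 0.23 ± 0.42, edgeR adjusted p = 0.841).

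Cytochrome P450 genes, which handle hormones and foreign chemicals, moved upward where they moved. Of 69 tested, 7 were higher, 0 were lower and 62 did not pass, with a median of 0.24, beside 2.75% higher over all genes. Cyp28d1 rose from 148, 83.3, 90.2 and 109 CPM to 209, 201, 186 and 196 CPM (log2 fold change 0.87 ± 0.16, edgeR adjusted p = 0.000333). Cyp6g1, known for insecticide resistance, rose by 0.74 ± 0.16 (edgeR adjusted p = 0.00271). The count was 3 without day 5 replicate 2, 4 without day 15 replicate 2 and 11 without day 5 replicate 1. Of 82 cytosolic ribosomal protein genes 4 were higher and 0 lower, a share near the 2.75% of all genes, with a median of 0.13, and that count was 0 without day 5 replicate 2 or 3 or day 15 replicate 3, 1 without day 15 replicate 2 and 17 without day 5 replicate 1.

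Neuropeptide genes moved both ways. Of 36 tested, 6 were higher and 2 lower, with a median of 0.30, beside 2.75% higher and 3.33% lower over all genes. Ilp2, an insulin-like peptide of brain cells, was read at 49.5, 54.3, 58.5 and 55.3 CPM and then at 80.3, 93.2, 86.5 and 101 CPM, without overlap (log2 fold change 0.74 ± 0.15, edgeR adjusted p = 0.00155). Ilp3, made by the same cells, fell from 8.97, 8.16, 16.8 and 15.1 CPM to 1.86, 2.67, 4.30 and 5.16 CPM (log2 fold change -1.77 ± 0.44, edgeR adjusted p = 0.0122), with adjusted p = 0.0512 without day 15 replicate 1 and 0.0526 without replicate 2. Ms (myosuppressin), sNPF and Orcokinin rose by 0.75 ± 0.14, 0.76 ± 0.16 and 0.69 ± 0.16 on the log2 scale, at edgeR adjusted p = 0.000744, 0.00296 and 0.0078. Without day 15 replicate 2 the list held 5 called genes.

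Synaptic and visual genes changed by smaller amounts. Of 23 genes of vesicle release 3 were lower and 0 higher, with a median of -0.15, beside 3.33% lower over all genes. Syt1, the calcium sensor of release, fell from 1277, 2131, 2857 and 1633 CPM to 1198, 933, 1048 and 1231 CPM (log2 fold change -0.84 ± 0.16, edgeR adjusted p = 0.000608), and the highest day 15 library lay just under the lowest at day 5. The count of 3 was 1 without day 5 replicate 2 or 3 or day 15 replicate 1 or 2, and 5 without day 5 replicate 1. Of 33 opsin and phototransduction genes 4 were lower and 1 higher, with a median of -0.13, beside 3.33% and 2.75% of all genes. rdgA, the diacylglycerol kinase of photoreceptors, fell by 0.39 ± 0.10, rdgB, the phosphatidylinositol transfer protein that binds VAP, by 0.36 ± 0.09 and Gbeta76C, the eye G protein subunit, by 0.45 ± 0.11 on the log2 scale, at edgeR adjusted p = 0.0111, 0.00836 and 0.0102. For Gbeta76C adjusted p was 0.0615 without day 5 replicate 2. Arr1, an arrestin that shuts off rhodopsin, rose from 2374, 1422, 1519 and 1958 CPM to 2196, 2765, 2680 and 2716 CPM with overlap (log2 fold change 0.51 ± 0.13, edgeR adjusted p = 0.0161), and its adjusted p was 0.0997, 0.0890 and 0.0593 without day 5 replicate 2, day 5 replicate 3 and day 15 replicate 2.

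The same 10 days were then set beside plain P58S heads, which lack the driver, and heads with wild-type VAP. These libraries are separate from the 8 described here. From here on, "with the driver" means Repo P58S heads without a kay construct, and the other arms with the driver are named. On their own, plain P58S heads had 688 age calls among 10195 genes (6.75%; 2.82% higher and 3.92% lower), and wild-type VAP heads had 650 (6.38%; 2.2% higher and 4.18% lower). Of the 595 genes called with the driver, 84.4% had the same sign in plain P58S and 84.9% in wild-type VAP heads, against 62.3% and 61.1% of all genes. In plain P58S heads 181 of the 595 were called in the same direction, which is 30.4% of these calls and 26.4% of the calls there, and 4 in the opposite one. In wild-type VAP heads 184 were called in the same direction, 30.9% and 28.4%, and 5 in the opposite one. Nplp3 fell in both, by 2.24 and 2.15 on the log2 scale, beside 2.47 with the driver, and the differences were -0.22 (edgeR adjusted p = 0.725) and -0.32 (edgeR adjusted p = 0.541).

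A direct test of the difference in age effect between Repo P58S and plain P58S heads called 127 of 10195 genes (1.25%), 61 more positive (0.598%) and 66 more negative (0.647%) with the driver. Repo P58S and plain P58S flies belong to separate sets of libraries, so driver, stock background and set cannot be told apart in it. CG7203 had the lowest p-value, though other called genes had larger differences: in plain P58S heads it was at 90.6 ± 36.4 CPM (SD, n = 4) at day 5 and 55.0 ± 7.0 at day 15, against 659 ± 92 and 42.5 ± 5.5 CPM with the driver (difference of log2 age effects -3.22 ± 0.30, edgeR adjusted p = 1.124e-10). Levels of Repo heads here use the scaling of the 32 Repo libraries, and those of plain heads the scaling of all 56 male libraries. The day 15 levels were close and the day 5 levels were not. CG43402 was at 13.4 and 12.5 CPM in plain P58S heads and at 34.1 and 3.96 CPM with the driver (difference -3.02 ± 0.36, edgeR adjusted p = 2.634e-07). CG4000 was at 42.9 and 35.5 CPM against 220 and 59.6 CPM (difference -1.61 ± 0.27, edgeR adjusted p = 0.000235). CG4250 rose in plain P58S heads, from 83.7 to 176 CPM, and was at 108 and 81.8 CPM with the driver (difference -1.49 ± 0.21, edgeR adjusted p = 1.33e-05).

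Muscle and respiratory chain genes were part of this difference. Of 21 muscle markers 7 had a more negative age effect in Repo P58S heads than in plain P58S and 0 a more positive one. Against wild-type VAP these counts were 6 and 0. Over all genes 0.647% and 0.294% were more negative. The median muscle marker changed by -0.25 in plain P58S and -0.29 in wild-type VAP heads, where 6 of 21 were called lower in each. Act57B was at 299 and 325 CPM in plain P58S heads and fell from 501 to 275 CPM with the driver (difference -0.98 ± 0.16, edgeR adjusted p = 0.000215). Against wild-type VAP the difference for Act57B was -0.95 ± 0.16 (edgeR adjusted p = 0.000391) and for Mlc2 -0.90 ± 0.15 (edgeR adjusted p = 0.000255). Respiratory chain genes also fell without the driver. In complex I, 6 genes were called lower in plain P58S heads (median -0.20) and 15 in wild-type VAP heads (median -0.34). In complexes II to V, 11 were lower and 1 higher in plain P58S (median -0.24), and 16 lower in wild-type VAP (median -0.36). Over all genes 3.92% and 4.18% were lower in these arms. Of the complex I genes 4 of 34, and of the complex II to V genes 8 of 38, fell more with the driver than in plain P58S. Against wild-type VAP 1 of 34 (ND-19) and 2 of 38 (ATPsynCF6 and COX7AL2) did. ATPsynE fell by 0.54 in Repo P58S heads and rose by 0.52 in plain P58S heads (difference -1.06 ± 0.18, edgeR adjusted p = 0.000302). In wild-type VAP heads, which also lack the driver, it was at 0.12 (edgeR adjusted p = 0.716). The difference from these did not pass (-0.65 ± 0.18, edgeR adjusted p = 0.0572).

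Several metabolic and signalling genes went in opposite directions in the 2 P58S groups. Men, malic enzyme, rose from 215 to 319 CPM with the driver and fell from 493 to 287 CPM in plain P58S heads (difference 1.35 ± 0.21, edgeR adjusted p = 0.000159). ImpL2, a secreted protein that binds insulin-like peptides, rose from 84.1 to 141 CPM against a fall from 109 to 68.2 CPM (difference 1.43 ± 0.23, edgeR adjusted p = 0.000169), and it differed from wild-type VAP heads too (1.28 ± 0.23, edgeR adjusted p = 0.000839). orion and CG8036, a transketolase-like gene, rose with the driver and did not pass in plain P58S heads, with differences of 1.03 ± 0.17 and 1.24 ± 0.21 (edgeR adjusted p = 0.00022 and 0.000302). Lsp1beta, a larval storage protein gene that the adult fat body still reads, was at 349, 133, 160 and 118 CPM at day 5 and 490, 493, 296 and 307 CPM at day 15 with the driver. It fell from 264 to 74.6 CPM in plain P58S heads (difference 2.87 ± 0.57, edgeR adjusted p = 0.00229). The rise of Lsp1beta on its own, 1.05 ± 0.33 with an adjusted p of 0.0486, did not hold without day 5 replicate 2, 3 or 4 or day 15 replicate 1, 2 or 3, at 0.171, 0.140, 0.136, 0.133, 0.144 and 0.0509.

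Against wild-type VAP heads the test called 90 of 10195 genes (0.883%), 60 more positive (0.589%) and 30 more negative (0.294%). rho rose with the driver and was at 161 and 166 CPM in wild-type VAP heads (difference 0.96 ± 0.14, edgeR adjusted p = 0.00014). Of the 11 activity-regulated genes 3 rose more than in wild-type VAP heads: Hr38 (19.7 to 15.8 CPM there, difference 2.50 ± 0.43, edgeR adjusted p = 0.000551), meng (76.5 to 52.1 CPM there, 1.14 ± 0.20, edgeR adjusted p = 0.000551) and sr. Against plain P58S 0 of them passed by edgeR, with a median difference of 0.47. CG12991, CG6044 and nsl1 fell by 1.38, 1.07 and 1.05 in wild-type VAP heads and were at 0.27, 0.08 and 0.14 here (differences 1.66 ± 0.26, 1.16 ± 0.19 and 1.20 ± 0.21, edgeR adjusted p = 0.000255, 0.000391 and 0.000654).

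These counts of differing genes moved with single libraries. Against plain P58S the count was 64, 75 and 67 without Repo P58S day 15 replicates 1, 2 and 3, 76 and 69 without plain P58S day 5 replicates 2 and 4, and 56, 57 and 62 without plain P58S day 15 replicates 1, 2 and 3. Against wild-type VAP it was 234 without Repo P58S day 5 replicate 1 and 42 without WT day 15 replicate 3. Of the genes named for these 2 tests, from CG7203 to nsl1, sr, ND-19, ATPsynCF6 and COX7AL2 were not followed singly. The others were called in all 16 omissions run for each.

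**Figure D5:**
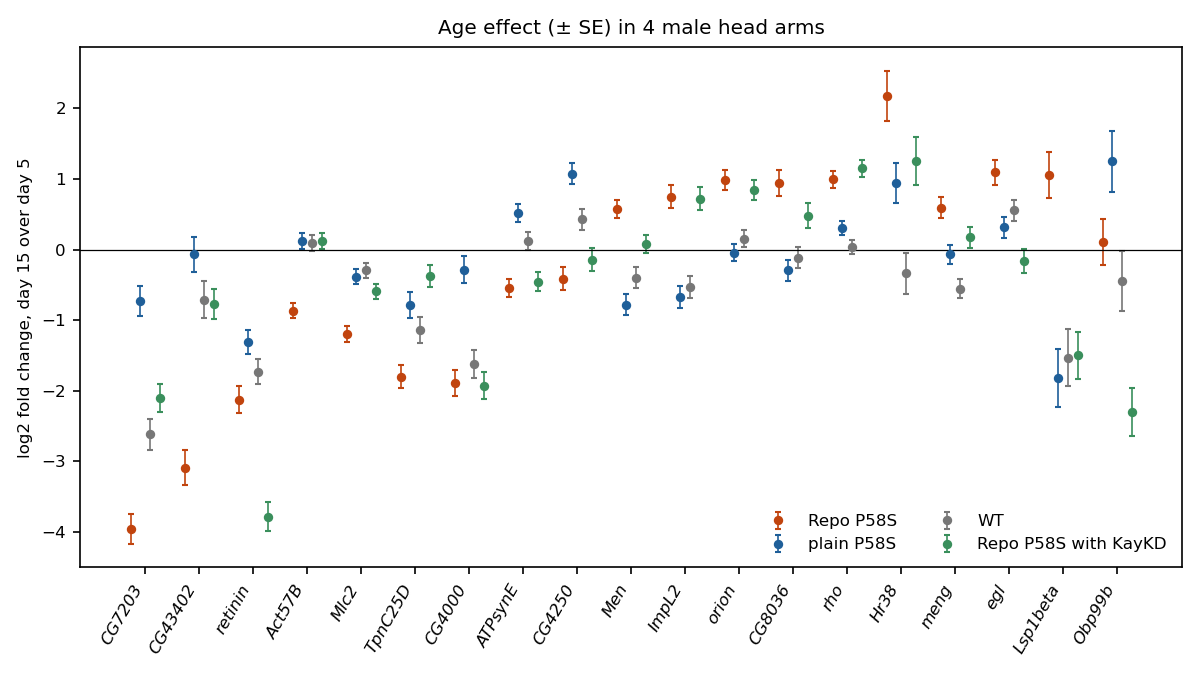
Log2 fold change from day 5 to day 15 with its SE for 19 genes in Repo P58S heads (orange), plain P58S heads (blue), heads with wild-type VAP (grey) and Repo P58S heads with KayKD (green), 4 libraries per age and arm. CG43402 stands at -3.09 in Repo P58S and at -0.07 in plain P58S, and Lsp1beta is above 0 in Repo P58S and below 0 in the other arms shown.

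The last comparison asked whether the age effect differs when the same driver also lowers kay in glia. In whole heads kay averaged 199 ± 16 CPM at day 5 and 259 ± 50 CPM at day 15 with KayKD (SD, n = 4), against 208 ± 9 and 268 ± 12 CPM with the driver alone, so the knockdown cannot be read from these levels. The test of the difference called 15 of 9796 genes (0.153%), 8 more positive (0.0817%) and 7 more negative (0.0715%) with the driver alone. CG43402 fell from 40.9 to 23.5 CPM with KayKD and from 34.1 to 3.96 CPM with the driver alone (difference -2.32 ± 0.32, edgeR adjusted p = 0.000331). CG7203 fell from 260 to 61.7 CPM with KayKD (difference -1.85 ± 0.27, edgeR adjusted p = 0.000476). Act57B went from 333 to 362 CPM with KayKD (difference -0.99 ± 0.15, edgeR adjusted p = 0.00074) and TpnC25D from 303 to 235 CPM (difference -1.43 ± 0.23, edgeR adjusted p = 0.000795).

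Other differing genes, with the exception of sun, had a less negative or more positive age effect with the driver alone. retinin fell further with KayKD, from 2190 to 161 CPM, than with the driver alone, from 2558 to 586 CPM (difference 1.66 ± 0.26, edgeR adjusted p = 0.00074). The heat-responsive noncoding RNA lncRNA:Hsromega was at 2343 ± 348 and 2356 ± 85 CPM with the driver alone and fell with KayKD, from 5404 ± 221 to 2673 ± 371 CPM (difference 1.02 ± 0.16, edgeR adjusted p = 0.00074). Lsp1beta and Obp99b, both read in fat body, fell with KayKD from 944 to 334 CPM and from 511 to 104 CPM (differences 2.55 ± 0.46 and 2.41 ± 0.46, edgeR adjusted p = 0.00579 and 0.0121). egl, which carries RNA along microtubules, rose from 21.6 to 46.6 CPM with the driver alone and was at 46.7 and 41.2 CPM with KayKD (difference 1.25 ± 0.24, edgeR adjusted p = 0.0135). sun, an ATP synthase epsilon subunit gene, fell from 440 to 207 CPM against 254 to 207 CPM (difference -0.79 ± 0.16, edgeR adjusted p = 0.0173). The calls of egl and sun were lost without Repo P58S day 5 replicate 3 (adjusted p = 0.0566 and 0.0588), and that of sun also without Repo P58S day 5 replicate 2 and day 15 replicates 2 and 3 (0.0604, 0.0569 and 0.0680) and without KayKD day 5 replicate 3 (0.0511).

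The count of 15 was 8, 9 and 9 without Repo P58S day 5 replicate 3 and day 15 replicates 2 and 3, and 52 and 37 without day 5 replicates 1 and 4. Under RLE scaling 8 of 19 calls were more positive and 11 more negative. Of the 21 muscle markers 2 differed, both more negative with the driver alone, and of the 34 complex I and 37 complex II to V genes edgeR called 0.

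The other arms that carry the driver moved largely in the same directions, with fewer calls in those that raise kay or carry KaySCR. KayKD heads had 562 age calls (5.74%; 2.88% higher and 2.86% lower), KayWT heads 156 (1.59%; 0.612% and 0.98%) and KaySCR heads 164 (1.67%; 0.521% and 1.15%). Of the 595 genes, 87.6%, 88.6% and 93.4% had the same sign in these arms, against 60.4%, 61.3% and 62.0% of all genes. Called in the same direction were 207 with KayKD (34.8% of the 595 and 36.8% of the calls there), 95 with KayWT (16.0% and 60.9%) and 123 with KaySCR (20.7% and 75.0%). CG7203 fell by 2.28 with KayWT and by 2.62 with KaySCR on the log2 scale, and rho rose by 0.78 in each. kay was at 0.25 (edgeR adjusted p = 0.423) with KayWT and -0.02 (edgeR adjusted p = 0.990) with KaySCR.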

How the data were processed

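Heads of male flies were profiled by 3′ end RNA sequencing. Per the labels' protocols, total RNA came from a phenol and chloroform extraction and was sequenced from transcript 3′ ends. The deposited male table holds unnormalized whole-number counts for 56 libraries and 23996 features. The build is dm6, per the submitters' processing notes; aligner, counter and strand setting: not given in the sources used here. The 17830 gene features entered library sizes and tests. Other features held 0.170% to 0.260% of reads, and 0 columns were left unused. Symbols and coordinates of 17751 genes came from Ensembl release 115 (BDGP6, the coordinates of dm6).

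Tests used the quasi-likelihood method of edgeR 4.0.16 (R 4.3.3) after filterByExpr and TMM scaling. The age effect and its difference from KayKD were fitted on the 32 Repo libraries, and differences from plain P58S and wild-type VAP on all 56 male libraries. SE is the absolute log2 fold change over the square root of F. The Benjamini-Hochberg adjustment ran over every tested gene, with a threshold of 0.05. CPM for Repo arms use the scaling of the 32 libraries, and for the other arms that of the 56. The script was tested on simulated data with known changes.

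Genes were named by a rule: the 15 largest rises and falls of called genes with a mean of at least 10 CPM and no overlap, the 10 lowest p-values each way, Vap33, kay, Jra, repo and w, up to 6 called members of each list by p (or 3 of a list with no call), and up to 10 calls of each difference. Genes that rule names may be left out. The members, the 47 lists and the rule were chosen with earlier results of these data known. 11 of the list names matched no gene. Alternatives were other scalings (RLE, upper quartile), other filters, DESeq2 1.42.0, fewer or more libraries in the fit, thinning to the shallowest library, the replicate number as a block and leaving out each library. Counting may split reads of near-identical copies such as cecropins, Turandot and Hsp70 genes and overlapping genes, and their single values are uncertain. Day 20 male libraries entered only the spread and scaling of the fits on 56 libraries. Female head and gut libraries were not used here, and 1 result on a gene is not reported here.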

Additional observations from a re-analysis of the deposited data

Results flagged for a closer look

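In groups of 4 libraries, 272 groups of values (89 named genes and 47 list sums, each at day 5 and day 15) were examined for a library far from the other 3 by Dixon's test, and 18 were found. Chance alone gives about 1 in 20. Among single genes, Hsp26 at day 15 was 262 CPM in replicate 4 against 25.1 to 45.0 CPM in the others. CG11458 at day 5 was 466 CPM in replicate 1 against 206 to 246 CPM. CG43402 at day 5 was 45.8 CPM in replicate 3 against 30.1 to 30.3 CPM, and ND-19 was 64.6 CPM in the same library against 79.1 to 79.2 CPM. Rel at day 5 was 16.4 CPM in replicate 4 against 28.3 to 29.7 CPM. ImpL2 was 74.4 CPM in day 5 replicate 2 against 86.5 to 88.1 CPM and 166 CPM in day 15 replicate 4 against 130.0 to 135 CPM. At day 15, retinin was 637 CPM in replicate 2, ND-B15 76.1 CPM in replicate 3 and Arr1 2196 CPM in replicate 1.

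Among list sums, hexamerins and larval serum proteins at day 5 came to 943 CPM in replicate 1 against 177 to 247 CPM in the others. Replicate 1 was also high in V-ATPase subunits at both ages (4612 CPM against 4251 to 4293 CPM, and 3975 CPM against 3656 to 3697 CPM), in autophagy genes at day 5 (992 CPM) and, at day 15, in antioxidant genes (1979 CPM) and glutathione S-transferases (1768 CPM). Neuron markers came to 10980 CPM in day 15 replicate 4 and blood cell markers to 402 CPM in day 15 replicate 3.

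The age effect of Repo P58S heads differed from that of another arm, by a test of the difference itself, for 127 genes against plain P58S, 90 against wild-type VAP and 15 against KayKD. Against plain P58S the differences on the log2 scale were -3.22 for CG7203, -3.02 for CG43402, -1.49 for CG4250, 1.35 for Men, 1.43 for ImpL2, -0.98 for Act57B, 1.03 for orion, -1.61 for CG4000, -1.06 for ATPsynE, 1.24 for CG8036 and 2.87 for Lsp1beta. Against wild-type VAP they were 0.96 for rho, 1.66 for CG12991, -2.37 for CG43402, -0.90 for Mlc2, 1.16 for CG6044, -0.95 for Act57B, 1.14 for meng, 2.50 for Hr38, 1.20 for nsl1 and 1.28 for ImpL2. Against KayKD they were -2.32 for CG43402, -1.85 for CG7203, -0.99 for Act57B, 1.02 for lncRNA:Hsromega, 1.66 for retinin, -1.43 for TpnC25D, 2.55 for Lsp1beta, 2.41 for Obp99b, 1.25 for egl and -0.79 for sun.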

How the results depend on the processing

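The count of 595 genes with an age effect stayed within 1.5 times under RLE and upper quartile scaling, both filters, DESeq2 and the replicate block, and moved to 294 with the 8 libraries fitted alone, 944 with all 56 and 108 after thinning to the shallowest library. Leaving out 1 library gave 361 to 892. The differences moved to 38 (plain P58S), 52 (wild-type VAP) and 9 (KayKD) with 16 libraries, to 212, 190 and 61 with DESeq2, and to 136 (wild-type VAP) and 23 (KayKD) with a mean of at least 10 CPM. Leaving out 1 library gave 56 to 169, 42 to 234 and 8 to 52. Replicate numbers did not pair the libraries: same-numbered libraries of the 2 ages correlated at -0.0457 to 0.0504. With the replicate block the counts were 516, 118, 92 and 15.

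Of 2222 values of the 120 named gene results under alternatives, 2077 kept direction and side, 132 lost a call, 9 gained one and 4 reversed. The reversals were of genes not called: Vap33 at 0.0188 after thinning and, without day 5 replicate 2 and day 15 replicate 3, at 0.0055 and 0.0169 (range over omissions -0.0707 to 0.0169), and w at 0.12 without day 5 replicate 1 (range -0.63 to 0.12). After thinning, complex I had 3 calls, complexes II to V 16, cuticle proteins 2, fat genes 2, P450, heat shock and ribosomal genes 0 and activity-regulated genes and neuropeptides 1 each; muscle stayed within 1.5 times of 17. The cause was not tested. Depth limits low genes: Jra, Hr38 and CecC rest on few reads in day 5 replicate 3.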

Other observations

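Other gene groups of Repo P58S heads had 0 to 3 calls each between day 5 and day 15, with 6.07% called over all genes. Of 20 endoplasmic reticulum stress and chaperone genes 1 was higher and 0 lower, with a median log2 fold change of 0.17. Of 16 genes of VAP and lipid transfer at contact sites 0 were higher and 2 lower, with a median of -0.08. Of 31 proteasome genes 1 was higher and 1 lower, of 19 autophagy genes 1 was higher, and of 23 V-ATPase genes 2 were lower. Of 31 glutathione S-transferase genes 2 were higher, of 13 antioxidant genes 1 was higher and 1 lower, and of 6 metallothionein genes edgeR called 0. Of 29 odorant-binding protein genes 2 were higher and 1 lower, which became 5 calls without day 5 replicate 1 and 6 without day 5 replicate 4.

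Markers of other tissues were read at uneven levels. The 16 gut markers tested, of which edgeR called 0, had a median of -1.10 and a summed level that ran from 665 to 5953 CPM at day 5 and from 310 to 3675 CPM at day 15. The 14 photoreceptor markers summed to 18310 to 20500 CPM at day 5 and 20030 to 23120 CPM at day 15, with 1 called higher. The 15 neuron markers summed to 11040 to 14200 CPM and then 10270 to 10980 CPM. Of these 3 were called lower, or 1 without day 5 replicate 2 or 3 or day 15 replicate 2 or 3. Over all genes 3.33% were called lower and 2.75% higher. The Turandot genes had a median of 0.16 here and of 3.55 in plain P58S heads over the 4 tested, and TotA and TotC differed between these arms by edgeR, both less positive with the driver.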
